A study of Mus musculus with 7 samples.

Results

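The 32 genes described here mark macrophages and other myeloid cells. They encode the growth factor and transcription factor that set up the lineage, Fc receptors, signaling adaptors and scavenger receptors. Lysosomal and killing proteins, and surface proteins shared with other leukocytes, complete the list. The genes were chosen by name, as all probes that are not controls and whose gene name is one of the 32. The array holds 60 such probes, of which 55 were kept for testing, and every one of the 32 genes had at least 1 probe kept, among 22503 gene names tested of 37074 on the array. RNA from the glands of 3 wild-type and 4 PRA transgenic female mice carried Cy5, 1 animal per array, and was hybridized against a Cy3-labeled pool of RNA from 11 mouse cell lines, the Universal Mouse Reference RNA. All mice were nulliparous FVB adults of 20 to 25 weeks in diestrus, the progesterone-rich stage of the cycle, and the labels name no treatment for either group. The transgenic mice overexpress the A form of the progesterone receptor (PRA) through a pair of transgenes, one carrying GAL-4 under the CMV promoter and the other the receptor behind GAL-4 binding sites, so that expression is not restricted to 1 cell type, and the labels call their glands preneoplastic. From each mouse came 1 whole abdominal gland, with its fat and stroma, after the lymph nodes had been cut out. The arrays are called WT 1 to WT 3 and PRA 1 to PRA 4 after their replicate numbers.

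Macrophages of the mammary gland lie along the ducts and in the fatty stroma, where they clear dying epithelium, remodel collagen and take part in duct outgrowth. They depend on the growth factor CSF1 and its receptor, and on the transcription factor PU.1. They sense antibodies through Fc receptors, some of which signal through adaptor proteins with an ITAM motif. They take up debris through scavenger receptors and digest it in lysosomes.

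Every value below is a log2 ratio of the gland to the reference, in which a higher value means more RNA in the gland than in the pool on that array, and the brightest kept probe stands for a gene. A log2 ratio of one gene says nothing about the level of another, since the reference holds each gene in its own amount. In whole glands, fewer macrophages and less RNA per macrophage cannot be told apart. A probe was kept when the Cy5 signal was well above background, as the scanner software tests it, on all arrays of at least 1 genotype. For 31 genes the brightest probe met this on all 7 arrays, while for Spi1 it did so on 3 wild-type and 2 PRA transgenic arrays. The reference signal was well above background on all 7 arrays for 23 genes and on fewer for 9: Spi1, Marco, Cd163, Mrc1, Siglec1, Timd4, Clec10a, Cd209a and Cybb. For those 9 the mean reference signal itself differed between the genotypes by -0.84 to 0.17 (log2, PRA transgenic minus wild-type), against -0.17 to 0.10 for the other 23.

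Over the series, 62.7% to 66.2% of probes were well above background in Cy5 on the wild-type arrays and 56.7% to 60.2% on the PRA transgenic arrays. In Cy3, the common reference, the shares were 53.2% to 54.0% and 47.2% to 50.6%, so that both channels were lower on the PRA transgenic arrays. No signal was saturated, and precision is limited by how few arrays there are. All 7 arrays lay on 1 slide, wild-type in row 1 and PRA transgenic in row 2, so that genotype cannot be told apart from the row. Markers of the labeled tissue were present: all 7 luminal, 6 basal and 8 adipocyte marker genes were measured, with mean log2 ratios of 2.90 to 3.63, 2.24 to 2.62 and 5.19 to 5.86 over the arrays. One array stood apart in lymphoid genes. WT 1 was the highest array for 10 of 10 T cell markers, with a list mean of 1.51 against -0.69 to -0.10 on the other 6, and for 3 of 5 B cell markers, with 0.76 against -1.08 to -0.43. Its lymph node list mean was 4.81 against 2.22 to 3.35, with 2 of 5 genes highest there. Over all gene names WT 1 was the highest array for 10.7%. A skeletal muscle list also split the arrays, with means of 1.71 in WT 1, 3.30 in WT 3 and 2.35 in PRA 4 against -0.95 to -0.61 on the other 4. The genotype comparison of the macrophage genes is therefore given below with and without WT 1 or PRA 4, as counts and for several single genes. Fold changes of the other gene lists, and of single probes other than the brightest, are given with all 7 arrays only. How far those turn on WT 1 or PRA 4 was not tested.

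With all 7 arrays, no macrophage gene passed an adjusted p of 0.05 in limma, the lowest being 0.491, against 0.00444% of all gene names. At an unadjusted limma P under 0.05 there were 3 of 32, against 7.95% of all gene names: Marco and Cybb lower (background 4.35%) and Cd163 higher (background 3.6%). The genotypes did not overlap for 2 of 32, Marco and Cd163, against 9.11% of all gene names. At 9.38% and 6.25% of the 32 genes, both shares lay near their background. The median log2 fold change of the 32 genes was -0.16, with 12 above and 20 below 0, against a median of 0.01 over all gene names, of which 47.3% were below 0. All 3 genes past P of 0.05 are among the 9 with a weak reference signal, and among the 23 genes with both channels measured on all arrays none passed it.

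Animals of 1 genotype differed widely in these genes. The mean log2 ratio of the 32 was 2.05, 1.83 and 1.62 in the wild-type glands and 1.37, 1.61, 1.32 and 2.20 in the PRA transgenic glands. PRA 1, PRA 2 and PRA 3 lay below all wild-type glands, PRA 2 only just, and PRA 4 lay above them. PRA 4 was the highest of the 7 arrays for 17 of the 32 genes (53.1%), against 13.1% of all gene names, and the lowest for 0. PRA 1 was the lowest for 13 and PRA 3 for 9 (40.6% and 28.1%), against 12.8% and 11.8% of all gene names. PRA 4 exceeded each of the other 3 PRA transgenic glands for 23 of 32 genes (71.9% against 26.3% of all gene names), by a median of 0.92 over their mean, where the median over all gene names was -0.01. The spread was accordingly wide. The median residual SD of the 32 genes was 0.499 against 0.259 over all gene names, and the median range over the 7 arrays was 1.43 against 0.75. These shares describe 1 animal and carry no test.

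**Figure D1:**
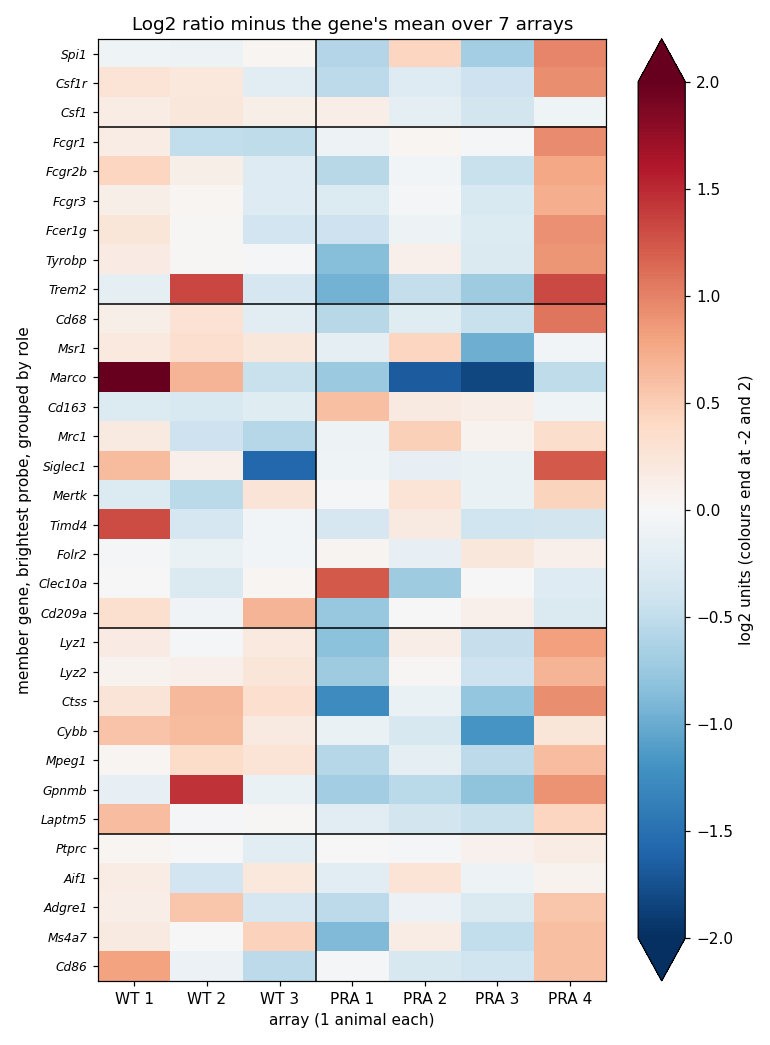
Log2 ratio of each of the 32 genes minus its own mean over the 7 arrays, 1 row per gene grouped by role and 1 column per array, with colors that end at -2 and 2 log2 units. PRA 4 is red for most genes, being the highest array for 17 of 32, and PRA 1 and PRA 3 are mostly blue, being the lowest for 13 and 9.

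**Figure D2:**
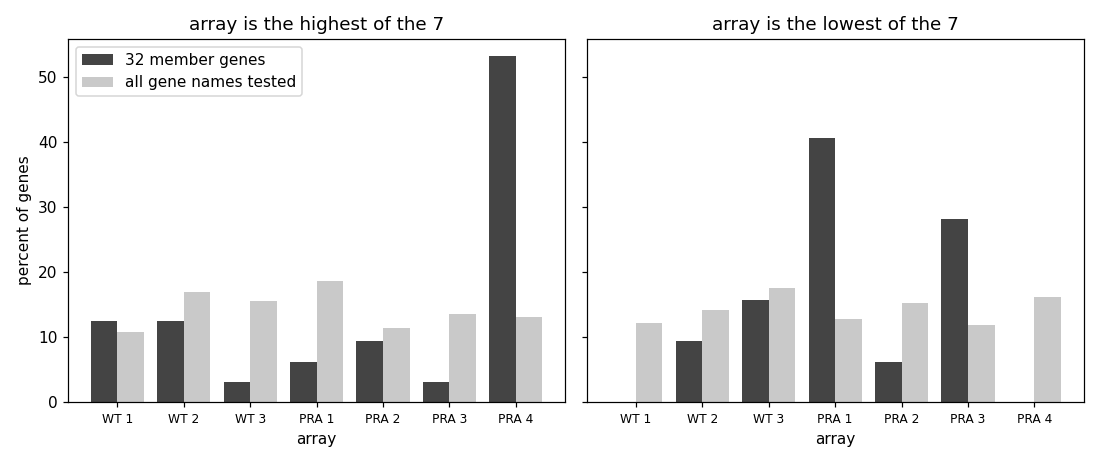
Percent of the 32 genes (dark bars) and of all gene names tested (light bars) for which each array is the highest (left) or the lowest (right) of the 7. PRA 4 stands at 53.1% of the 32 genes on the left, against 13.1% of all gene names.

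Without PRA 4 the genotype comparison read differently. Of the 32 genes, 7 were lower in the remaining PRA transgenic glands at limma P under 0.05, against 5.41% of all gene names: the perforin-like Mpeg1, the lysosomal protease Ctss, the oxidase subunit Cybb, the CSF1 receptor Csf1r, the lysosomal glycoprotein Cd68, the lysosomal membrane protein Laptm5 and the lysozyme Lyz2. Cd163 alone was higher at that P, against 5.89%, so that 8 of 32 passed in either direction against 11.3%. The genotypes did not overlap for 11 genes, 10 of them lower, against 18.9%. The median log2 fold change was -0.44, with 24 genes below 0, against 0.02 over all gene names. Still none passed the adjusted threshold, against 0.0267% of all gene names, the lowest adjusted p being 0.288. Without WT 1 instead, 2 genes passed P of 0.05 (7.5% of all gene names), Marco lower (4.45%) and the mannose receptor Mrc1 higher (3.05%), and 4 did not overlap (17.1%). Without both arrays 8 passed (9.98%), 5 lower (5.27%) and 3 higher (4.71%), and 13 did not overlap (28.5%), the background rising as arrays were left out. PRA 4 was singled out after its values were seen, as the highest PRA transgenic gland for 23 of these 32 genes. Leaving it out lowers the PRA transgenic mean of each of those genes, so that shift was fixed by the choice. The background shares come from genes not chosen that way and are not a like comparison. The counts without PRA 4 alone describe 6 animals.

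**Figure D3:**
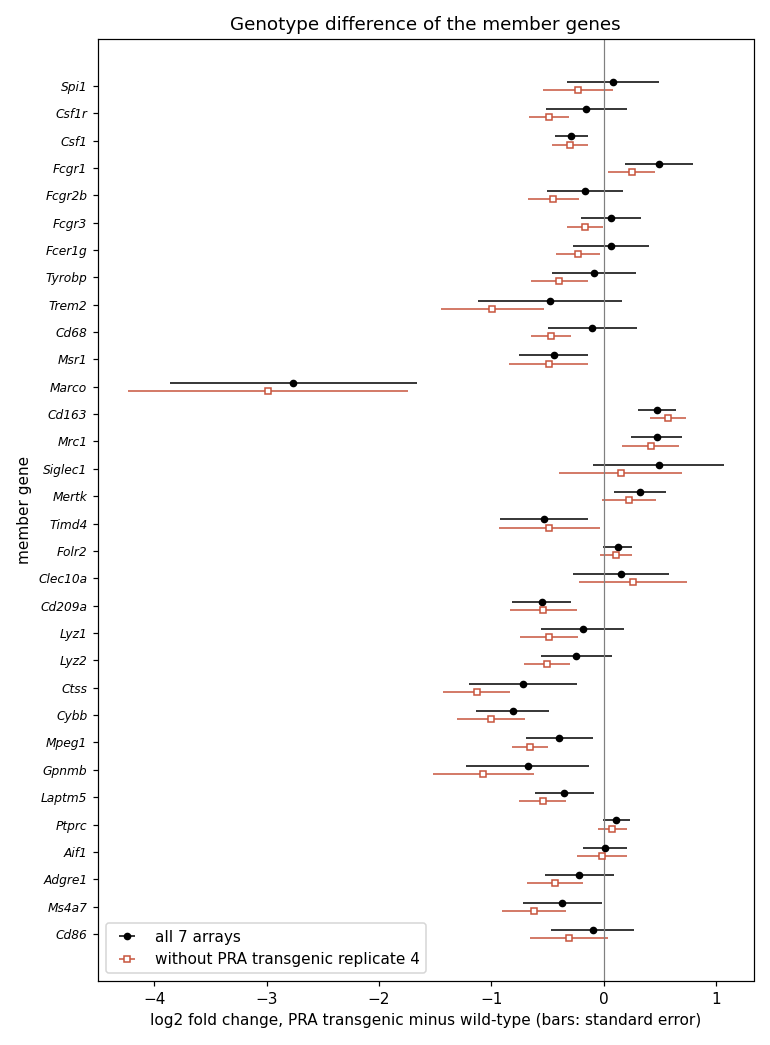
Log2 fold change (PRA transgenic minus wild-type, bars of 1 standard error) of the 32 genes with all 7 arrays (filled black circles) and without PRA 4 (open red squares). Most genes move to the left without PRA 4, and the median goes from -0.16 to -0.44.

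Of the lineage factors, Csf1 encodes the growth factor and Csf1r its receptor. Csf1 (probe on chromosome 3, 107544333 to 107544392 of mm9) had log2 ratios of -1.52, -1.44 and -1.55 in wild-type and -1.53, -1.85, -2.03 and -1.75 in PRA transgenic glands. Its PRA transgenic values reached down from the lower end of the wild-type range, and PRA 1 lay within it. Between genotypes Csf1 differed by -0.29 on the log2 scale (SE 0.14, adjusted p = 0.611), and a further probe of the gene gave 0.02. Csf1r (chromosome 18, 61290725 to 61290784) stood at 1.92, 1.87 and 1.44 in wild-type and 1.13, 1.40, 1.24 and 2.58 in PRA transgenic glands. PRA 1, PRA 2 and PRA 3 lay below every wild-type gland and PRA 4 above every one. The log2 fold change of -0.15 (SE 0.36, adjusted p = 0.940) became -0.49 without PRA 4 (SE 0.17, adjusted p = 0.367), and the second Csf1r probe gave 0.30 with all arrays, with PRA 4 again highest at 0.88. Spi1, which encodes PU.1, ranged from -1.21 in PRA 3 to 0.44 in PRA 4, with a log2 fold change of 0.09, and -0.23 without PRA 4 or in Cy5 alone.

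Of other growth factors and myeloid transcription factors, 9 of 11 listed genes were tested, with Csf2 and Csf3 not kept. One was lower at limma P under 0.05, none higher, and none at an adjusted p under 0.05. It was Irf8, a factor of monocytes and dendritic cells, with a log2 fold change of -0.43 (SE 0.15, adjusted p = 0.476) and overlapping genotypes. The median log2 fold change of the 9 was -0.25.

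The Fc receptor group joins the IgG receptors Fcgr1, Fcgr2b and Fcgr3 with the ITAM adaptors Fcer1g and Tyrobp. It also holds the lipid-sensing receptor Trem2, which signals through Tyrobp. Of these 6 genes 3 had log2 fold changes above and 3 below 0, from -0.48 to 0.49, and none reached limma P of 0.05. Without PRA 4 the split was 1 above and 5 below 0, with Fcgr3 going from 0.07 to -0.17 and Fcer1g from 0.07 to -0.22. Fcgr1, the high-affinity receptor (chromosome 3, 96088462 to 96088521), stood at 0.12, -0.51 and -0.53 in wild-type and -0.13, 0.02, -0.07 and 0.91 in PRA transgenic glands. PRA 4 was highest by a wide gap, and the other 3 PRA transgenic glands lay within the wild-type range. Its log2 fold change was 0.49 (SE 0.30, adjusted p = 0.683) and 0.25 without PRA 4. Fcgr2b, Fcgr3, Fcer1g and Tyrobp were also highest in PRA 4, at 1.12, 3.44, 0.46 and 2.30, and the next highest array for each lay at 0.77, 2.83, -0.21 and 1.59, in WT 1. Fcgr2b and Fcgr3 are close relatives, and their 60-base probes share no run longer than 7 bases. A match of a probe to the other gene's transcript was not tested.

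Trem2 and the lysosomal glycoprotein Gpnmb, both known from lipid-laden macrophages, were high together in 2 animals. Trem2 (chromosome 17, 48491537 to 48491596) had log2 ratios of -1.64, -0.12 and -1.79 in wild-type and -2.40, -1.93, -2.17 and -0.13 in PRA transgenic glands. WT 2 and PRA 4 lay together, more than a log2 unit above all the rest. Gpnmb (chromosome 6, 49006386 to 49006445) stood at -3.91, -2.30 and -3.88 in wild-type and -4.45, -4.29, -4.56 and -2.86 in PRA transgenic glands, with the same arrays high. In each genotype 1 animal was thus high for both genes. The log2 fold changes were -0.48 (SE 0.64, adjusted p = 0.875) for Trem2 and -0.68 (SE 0.55, adjusted p = 0.766) for Gpnmb. Without PRA 4 they were -0.99 (SE 0.46, adjusted p = 0.451) and -1.07 (SE 0.45, adjusted p = 0.412), with genotypes that did not overlap and limma P over 0.05. Without WT 2 the Trem2 value turned to 0.05. WT 2 and PRA 4 were also the 2 highest arrays for Cd68, Ctss, Mpeg1 and Adgre1, by gaps of 0.09 to 0.42 to the next array, against 1.51 for Trem2 and 1.02 for Gpnmb. That makes 6 of the 32 genes (18.8%), against 7.82% of all gene names. On the longer list of other macrophage genes described below it was 12 of 34 (35.3%), where the gap was widest for Clec12a at 0.60. The 2 arrays were picked from Trem2 and Gpnmb, which are among the 6, and PRA 4 was the highest array for 17 of the 32 genes. The shares are not independent of that choice and were not tested.

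Promoter sequence was available for 24 of the 32 genes, as 28 windows from 250 bases before to 50 after a start site (RefSeq, GRCm38.p6). The letters GAGGAA, the core of sites bound by PU.1, were looked for on both strands. They occurred in 13 of the 28 windows (46.4%) and in 28.3% of the 32851 windows of all genes, a description in which windows of 1 gene overlap. The longer GAGGAAGT, which contains the core, occurred in 3.57% against 3.20%, the E-box CACGTG, bound by lysosomal gene factors, in 0 of 28 against 7.15%, and the TATA letters TATAAA in 14.3% against 13.6%. The 250 bases before the start are printed for the Trem2 and Gpnmb pair, which were high in the same 2 glands, and for Ctss and Mpeg1, which had the lowest limma P without PRA 4. All 4 lie on the plus strand, the GAGGAA core is in capitals and reads TTCCTC where it lies on the other strand.
Trem2, chr17:48346151-48346400: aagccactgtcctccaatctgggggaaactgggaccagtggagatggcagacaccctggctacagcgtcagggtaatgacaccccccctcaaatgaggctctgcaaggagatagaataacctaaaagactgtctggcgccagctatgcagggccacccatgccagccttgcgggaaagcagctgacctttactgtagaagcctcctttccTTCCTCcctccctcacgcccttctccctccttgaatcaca
Gpnmb, chr6:49036268-49036517: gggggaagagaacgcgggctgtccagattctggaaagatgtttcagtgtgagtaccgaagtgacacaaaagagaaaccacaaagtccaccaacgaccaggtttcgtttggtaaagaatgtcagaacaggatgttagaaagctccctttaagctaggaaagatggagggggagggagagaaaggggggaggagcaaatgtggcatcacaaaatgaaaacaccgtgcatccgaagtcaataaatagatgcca
Ctss, chr3:95526536-95526785: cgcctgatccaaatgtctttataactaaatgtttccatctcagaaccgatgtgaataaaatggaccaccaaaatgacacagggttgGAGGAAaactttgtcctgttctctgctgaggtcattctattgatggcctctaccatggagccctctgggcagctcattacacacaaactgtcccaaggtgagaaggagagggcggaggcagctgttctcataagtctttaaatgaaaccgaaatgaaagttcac
Mpeg1, chr19:12460520-12460769: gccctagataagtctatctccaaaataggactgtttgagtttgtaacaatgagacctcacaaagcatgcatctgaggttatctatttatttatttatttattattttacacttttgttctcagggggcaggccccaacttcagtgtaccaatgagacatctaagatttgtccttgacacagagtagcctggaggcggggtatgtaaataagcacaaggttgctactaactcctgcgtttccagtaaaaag
The core stands 40 to 35 bases before the Trem2 start, on the minus strand, and 164 to 159 bases before the Ctss start. The printed Gpnmb and Mpeg1 stretches do not hold these letters, so that of the pair high in WT 2 and PRA 4 one has them here and the other does not.

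Below the ITAM receptors act kinases and adaptors such as Syk, Btk and Vav1, and 9 of 9 listed genes were tested. None passed limma P of 0.05 in either direction, and none passed the adjusted threshold. Their median log2 fold change was -0.43. WT 1 was the highest array for 4 of the 9 and PRA 4 for 1, against 10.7% and 13.1% of all gene names.

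The scavenger and uptake receptors held the largest single difference. Marco, a receptor for bacteria and particles found on macrophages of lymph node sinuses and splenic marginal zone (chromosome 1, 122371115 to 122371134), had log2 ratios of 6.13, 2.31 and 1.18 in wild-type and 0.89, -0.04, -0.19 and 1.13 in PRA transgenic glands. All wild-type glands lay above all PRA transgenic glands, WT 1 by far the highest and WT 3 only just above PRA 4. Marco had a log2 fold change of -2.76 (SE 1.10, adjusted p = 0.530), a 6.78-fold lower mean. Without WT 1 it was -1.30 (adjusted p = 0.589), and without both WT 1 and PRA 4 it was -1.53. The genotypes did not overlap without WT 1 either, as for 17.1% of all gene names, with WT 3 at 1.18 and PRA 4 at 1.13. WT 1 is the array with the highest T cell, B cell and lymph node lists. Of the 5 lymph node genes tested, Cr2 and Ccl19 were highest in WT 1. Ccl21a and Glycam1 were highest in WT 3 and Cxcl13 in PRA 2. Cr2, the complement receptor of B cells and follicular dendritic cells, was picked after its values were seen. It stood at 4.87 in WT 1 against 0.16 to 1.09 on the other arrays. The part of these cells in the Marco value was not tested.

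Timd4, which binds phosphatidylserine on dying cells, shared the WT 1 peak. It stood at 5.80, 4.16 and 4.44 in wild-type and 4.16, 4.68, 4.10 and 4.13 in PRA transgenic glands. Its log2 fold change of -0.53 (SE 0.39, adjusted p = 0.740) was -0.03 without WT 1. The Timd4 reference was well above background on 0 of 7 arrays. In log2 Cy5 signal WT 1 was also highest, at 9.40 against 6.58 to 7.87 on the other arrays. The costimulatory gene Cd86 and Laptm5 were also highest in WT 1, at 1.83 and 0.34, each with PRA 4 next, at 1.61 and 0.14. Cd86 gave -0.10 with all arrays, 0.28 without WT 1 and -0.31 without PRA 4.

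Cd163, the receptor for hemoglobin bound to haptoglobin (chromosome 6, 124280484 to 124280543), stood at 4.70, 4.68 and 4.73 in wild-type and 5.57, 5.15, 5.10 and 4.89 in PRA transgenic glands. By this ratio all PRA transgenic glands were higher, with PRA 4 the nearest to wild-type. In log2 Cy5 signal PRA 4 was instead the highest array at 10.92, against 9.43 to 9.93 in wild-type. The other PRA transgenic glands lay at 8.79 to 9.48. The Cy3 signal was 6.03 in PRA 4 and 3.69 to 3.91 on the other PRA transgenic arrays. Cd163 had a log2 fold change of 0.47 (SE 0.17, adjusted p = 0.491). The difference lay in the reference channel: in Cy5 alone it was 0.02, in Cy3 -0.44, and the reference was well above background on 4 of 7 arrays. The second Cd163 probe gave 0.01, with PRA 4 highest at 4.75, and another background correction and scaling, normexp with loess, turned the sign of the brightest probe, to -0.11. Mrc1, the mannose receptor, behaved alike. Its log2 ratio was 0.47 higher in PRA transgenic glands (SE 0.23, adjusted p = 0.601), the Cy5 difference was -0.04, the Cy3 difference -0.50, and the reference was well above background on 2 of 7 arrays. After normexp and loess it was -0.11. Without WT 1, the wild-type gland highest in Mrc1 at 7.07, the log2 fold change was 0.69 (adjusted p = 0.512).

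Cd209a, a lectin of monocyte-derived cells (chromosome 8, 3743481 to 3743540), stood at 5.90, 5.50 and 6.26 in wild-type and 4.81, 5.57, 5.67 and 5.29 in PRA transgenic glands. PRA 2 and PRA 3 overlapped WT 2, and PRA 1 was lowest. This gave a log2 fold change of -0.55 (SE 0.26, adjusted p = 0.599). The Cd209a reference was well above background on 0 of 7 arrays, and the difference in Cy5 alone was -0.39. In log2 Cy5 signal PRA 4 was the highest array at 9.05, against 8.65 to 9.02 in wild-type. Siglec1, the sialic acid receptor of tissue macrophages, ranged from 2.64 in WT 3 to 5.44 in PRA 4, with PRA 1, PRA 2 and PRA 3 between 4.05 and 4.13, and a log2 fold change of 0.49 (SE 0.58, adjusted p = 0.850). That value has no stable size or sign: it was 0.15 without PRA 4, 0.94 without WT 1, -0.16 without WT 3, -0.02 in Cy5 alone and -0.19 after normexp and loess, and the second kept probe gave 0.02. Cd68 was highest in PRA 4 at 0.21, with the other 6 arrays between -1.41 and -0.57, and its log2 fold change went from -0.10 to -0.47 without PRA 4 (SE 0.18, adjusted p = 0.380).

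The remaining uptake receptors had smaller or less even differences. Msr1, the class A scavenger receptor, gave -0.44, Mertk, the receptor kinase for engulfing dying cells, gave 0.33, and Folr2, a folate receptor of resident macrophages, gave 0.13 with the narrowest range of the uptake receptors, 0.39 over the 7 arrays. None of them reached limma P of 0.05. The narrow Folr2 range holds for the ratio only. Its log2 Cy5 signal ran from 9.82 in PRA 1 to 12.11 in PRA 4, and its Cy3 signal from 5.31 to 7.56 on the same arrays. Clec10a, a galactose lectin, is uncertain, because its probes differ: the brightest gave 0.15, with PRA 1 highest at 8.13, and the other gave -1.01, with PRA 1 lowest at 1.85 and WT 1 highest at 5.39. After normexp and loess the brightest probe gave -0.65, past an unadjusted P of 0.05, and in Cy5 alone -0.70. Over the 11 receptors 6 log2 fold changes lay above 0 and 5 below, with a median of 0.13. The direction of this group flips with the scaling, to 2 above and 9 below 0 with medians of -0.16 after normexp and loess and -0.22 in Cy5 alone. Each of the 6 above 0 except Mertk and Folr2 belongs to the genes with a weak reference signal.

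All 7 lysosomal and killing genes had negative log2 fold changes, from -0.81 to -0.19 with a median of -0.39, though 1 of the 7 reached limma P of 0.05. All 7 stayed below 0 under every scaling tried, and without PRA 1 the lysozyme gene Lyz1 turned to 0.06. Cybb, the catalytic subunit of the phagocyte NADPH oxidase (chromosome X, 9014314 to 9014373), stood at 2.17, 2.23 and 1.78 in wild-type and 1.47, 1.28, 0.42 and 1.84 in PRA transgenic glands. Only PRA 4 reached the wild-type range, and PRA 3 was lowest. The log2 fold change was -0.81 (SE 0.33, adjusted p = 0.535), -0.81 in Cy5 alone, and -1.01 without PRA 4 (SE 0.30, adjusted p = 0.324). Its second probe gave -0.46, with -0.01 in Cy5 and 0.46 in Cy3, where the reference was well above background on 4 of 7 arrays. The 6 partners of Cybb in the oxidase and its proton channel had a median of -0.26. None of them passed limma P of 0.05 in either direction or the adjusted threshold. PRA 4 was the highest array for 3 and PRA 1 the lowest for 3, against 13.1% and 12.8% of all gene names.

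Ctss, the lysosomal protease cathepsin S (chromosome 3, 95360162 to 95360221), had log2 ratios of 1.31, 1.70 and 1.39 in wild-type and -0.20, 0.92, 0.29 and 1.98 in PRA transgenic glands. PRA 1, PRA 2 and PRA 3 lay below every wild-type gland and PRA 4 above every one. For Ctss the log2 fold change was -0.72 (SE 0.48, adjusted p = 0.711) with all arrays and -1.13 (SE 0.30, adjusted p = 0.300) without PRA 4. Mpeg1 followed the same order, at 0.89, 1.21 and 1.12 in wild-type and 0.28, 0.66, 0.32 and 1.46 in PRA transgenic glands. Its log2 fold change went from -0.39 to -0.65 without PRA 4 (SE 0.16, adjusted p = 0.288), the lowest of the 32 genes in that comparison. A second Mpeg1 probe did not share the order and gave 0.04 with all arrays, with PRA 1 at 2.68 beside 2.75 in PRA 4. Laptm5 stood at 0.34, -0.32 and -0.26 in wild-type and -0.50, -0.64, -0.73 and 0.14 in PRA transgenic glands, with -0.35 over all arrays and -0.54 without PRA 4 (adjusted p = 0.385). Without WT 1 it was -0.14.

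Lyz1 and Lyz2 are near-identical lysozyme genes, side by side on chromosome 10, and a probe of one may catch RNA of the other. Their first 30 bases are printed to show how far the probes differ, in lower case.
Lyz1, probe A_55_P2181738: ccaataaccacaggagcaaatctaatctca
Lyz2, probe A_52_P238027: cttaagttccttcattcacactaactctga
Lyz2, probe A_51_P321150: aacgttgtgagtttgccagaactctgaaaa
Over their full 60 bases, the Lyz1 probe shares no run longer than 8 bases with the first Lyz2 probe and 6 with the second. Probes placed at different positions can differ whatever RNA they catch, and a match to the other gene's transcript was not tested. The values ran together. Lyz1 stood at 4.05, 3.84 and 4.09 in wild-type and 3.07, 4.03, 3.42 and 4.70 in PRA transgenic glands, and Lyz2 at 3.88, 3.92 and 4.05 and at 3.10, 3.83, 3.39 and 4.49. PRA 4 was highest and PRA 1 lowest for both genes. The log2 fold changes were -0.19 and -0.24, and without PRA 4 -0.49 (SE 0.26, adjusted p = 0.504) and -0.51 (SE 0.21, adjusted p = 0.404). The second Lyz2 probe gave 0.12 with all arrays.

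**Figure D4:**
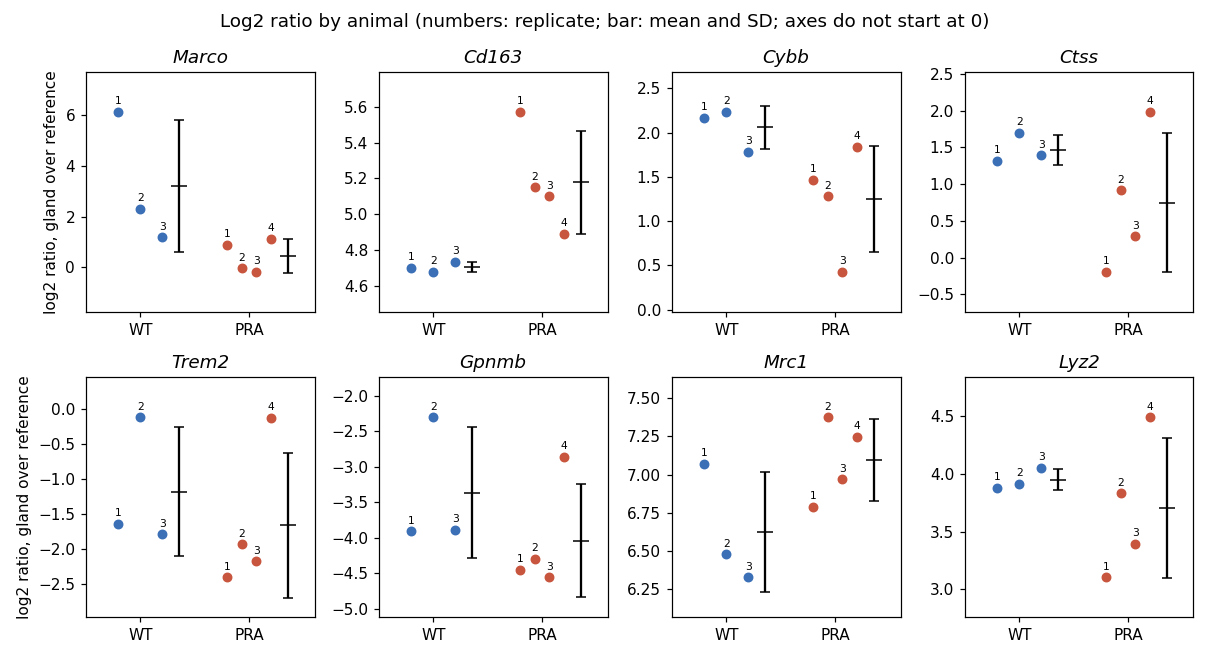
Log2 ratio of the gland to the reference in each animal for 8 of the genes, wild-type in blue and PRA transgenic in red, with the replicate number above each point and the mean and SD as a bar. The vertical axes differ and do not start at 0. WT 1 stands alone for Marco at 6.13, WT 2 and PRA 4 stand together for Trem2 and Gpnmb, and PRA 4 is above all wild-type glands for Ctss and Lyz2.

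Of the surface and cytoplasmic genes, Ms4a7, a tetraspan protein of macrophages (chromosome 19, 11395903 to 11395962), stood at 2.19, 1.99 and 2.46 in wild-type and 1.13, 2.15, 1.51 and 2.61 in PRA transgenic glands. PRA 1 and PRA 3 were below every wild-type gland, PRA 2 was among them and PRA 4 was above. For Ms4a7 the log2 fold change was -0.37 (SE 0.35, adjusted p = 0.808) and -0.62 without PRA 4 (SE 0.29, adjusted p = 0.448). Adgre1, which encodes the classic surface antigen of mouse macrophages (chromosome 17, 57622843 to 57622902), stood at 1.40, 1.82 and 0.93 in wild-type and 0.73, 1.14, 0.97 and 1.82 in PRA transgenic glands. The ranges overlapped almost entirely, with WT 2 beside PRA 4 at the top. The log2 fold change was -0.22 (SE 0.31, adjusted p = 0.884), -0.43 without PRA 4 (SE 0.25, adjusted p = 0.543) and 0.00 without WT 2. Aif1, the calcium-binding protein IBA1, gave 0.01, with a range over the 7 arrays of 0.66.

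Ptprc, which encodes the leukocyte antigen CD45, showed how the choice of probe matters. Its brightest probe ranged from -0.56 to -0.18 over the 7 arrays, with a log2 fold change of 0.11 (SE 0.12, adjusted p = 0.830). The 4 other kept probes were all highest in WT 1 and gave -0.65 to -0.38, none at limma P under 0.05. Among them the widest gap was at the probe where WT 1 stood at 0.44 and the other arrays between -2.11 and -0.95, a probe well above background in Cy5 on 4 of 7 arrays. Over all 32 genes, 16 had more than 1 kept probe, and for 8 of these the probes gave log2 fold changes of both signs.

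Other macrophage and monocyte genes, among them complement C1q, integrins and C-type lectins, were read as a longer list that shares none of the 32. Of 35 genes 34 were tested, with Vsig4 not kept. One was lower at limma P under 0.05, none higher, and none passed the adjusted threshold, with a median log2 fold change of -0.28. It was Lyve1, a hyaluronan receptor of lymph vessels and some resident macrophages, at -1.23 (SE 0.47, adjusted p = 0.515) with overlapping genotypes. In Cy5 alone Lyve1 differed by -0.63. The array order was that of the 32 genes. List means were 1.48, 1.40 and 1.32 in wild-type and 0.80, 1.10, 0.77 and 1.63 in PRA transgenic glands. PRA 4 was the highest array for 11 of 34, PRA 1 the lowest for 12 and PRA 3 for 11. Over all gene names these shares were 13.1%, 12.8% and 11.8%. The lists were read on the same animals, so this repeats the animals' order in other genes and is not a further sample.

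Markers of other cells were set beside this order. For each marker list the background over all gene names is 4.35% lower and 3.6% higher at limma P under 0.05. For genotypes that do not overlap it is 9.11%. T cell markers (10 of 11 tested, as Trbc2 is not an array name) had 1 lower at limma P under 0.05, Cd8a at -2.71 (SE 0.88, adjusted p = 0.462), with genotypes that did not overlap, WT 1 at 5.06 and a Cy5 signal well above background on 4 of 7 arrays. The median of the list was -0.67. Of 5 B cell markers tested none passed in either direction, with a median of -0.18, and likewise none of 5 lymph node genes, with a median of -0.78. Cd79a, Fcrla, Blk and Madcam1 were not kept. In PRA 4 the T cell mean was -0.65, the B cell mean -1.04 and the lymph node mean 2.69, and none of these genes was highest there.

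Dendritic cell markers included 2 lower at limma P under 0.05 of 7 tested, with a median of -0.50, one of them the transcription factor Zbtb46 at -0.93 with overlapping genotypes. Clec9a, a receptor for dead cells on cross-presenting dendritic cells, was lower with no overlap, at -1.37 (SE 0.27, adjusted p = 0.330). It stood at 3.73, 3.90 and 3.25 in wild-type and 2.07, 1.83, 2.30 and 2.80 in PRA transgenic glands, PRA 4 being nearest to wild-type. In Cy5 alone the differences were smaller, -0.78 for Clec9a and -0.41 for Zbtb46. Of 9 neutrophil markers 1 was higher and 1 lower, the calprotectin subunit S100a8 at -0.58 with overlap, and the median was 0.17. The genotypes did not overlap for 2 of them, in opposite directions. S100a9, the other calprotectin subunit, had a log2 fold change of -1.41 (SE 0.92, adjusted p = 0.703), with PRA 1 at 1.07 and the other arrays between 4.59 and 5.42. In Cy5 alone S100a9 differed by 0.21, so the lower ratio is not seen in the gland channel. Camp, an antimicrobial peptide, was higher at 0.52 (SE 0.17, adjusted p = 0.463), and by 0.26 in Cy5 alone. None of 8 mast cell markers passed, with a median of 0.38. Xcr1, Ngp and Cxcr2 were not kept.

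Of the tissue's own cells, none of 7 luminal and none of 6 basal epithelial markers passed limma P of 0.05, with medians of -0.21 and 0.17. Among 8 adipocyte markers 1 was higher, the lipase Lipe at 0.42 (SE 0.15, adjusted p = 0.493), with a list median of 0.15. Among 7 fibroblast markers 1 was lower, the collagen gene Col3a1 at -0.53 (SE 0.17, adjusted p = 0.453), with a median of -0.11. Among 7 endothelial markers 1 was higher, Emcn at 0.78 (SE 0.16, adjusted p = 0.330), with a median of 0.16, and none of 6 muscle genes tested passed, with a median of -1.42 and Ckm not kept. For the 3 genes named the genotypes did not overlap, and no gene of any marker list passed the adjusted threshold. In Cy5 alone the differences were 0.31 for Lipe, -0.36 for Col3a1 and 0.35 for Emcn.

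PRA 4 differed from the other PRA transgenic glands in further lists. Its fibroblast mean was 2.98 against 2.49 to 2.51, with 4 of 7 genes highest there. Its muscle mean was 2.35 against -0.70 to -0.61, with 0 of 6 highest there. Over all gene names PRA 4 was the highest array for 13.1%. The part of muscle or fibroblast content in the macrophage values was not tested.

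**Figure D5:**
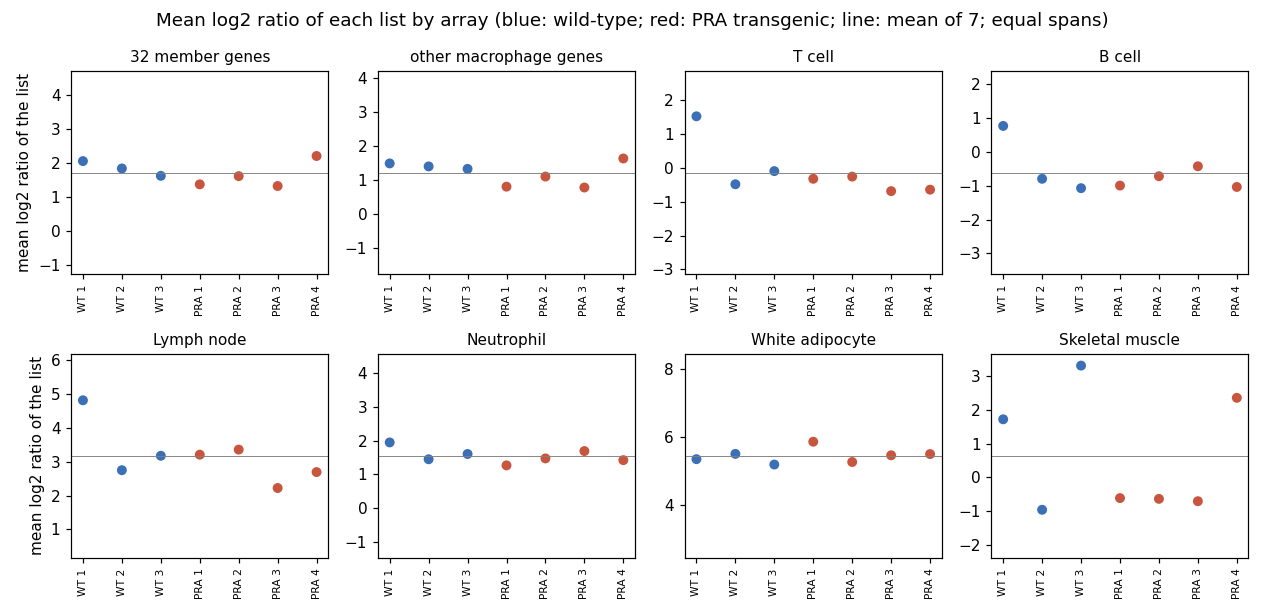
Mean log2 ratio of 8 gene lists on each array, wild-type in blue and PRA transgenic in red, with a line at the mean of the 7 and vertical axes of equal span. PRA 4 tops the 32 genes at 2.20 and the other macrophage list at 1.63, WT 1 tops the T cell, B cell and lymph node lists, and the muscle list is high in WT 1, WT 3 and PRA 4.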

How the data were processed

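The deposited scanner files come from Agilent Feature Extraction 12.0, whose processed intensity values were background-subtracted, detrended and dye-normalized by the software, dim signals being replaced by surrogates. A deposited value table on the log2 scale was checked on all 56605 probes and holds those ratios centered on each probe's median over the 7 arrays. Groups and replicate numbers came from the sample labels.

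The log2 ratio of processed Cy5 to Cy3 was computed after control and outlier spots had been removed, with the mean taken over replicate spots. By the rule given above 34288 probes were kept. The genotype comparison was fitted in R 4.3.3 by lmFit and eBayes from limma 3.58.1, and p-values were adjusted by Benjamini-Hochberg over all kept probes. The p-values measure the spread between animals. Gene names and mm9 positions are those of the files, and where a probe lies within its transcript is not given in the sources used here. Background shares count the brightest kept probe of each gene name. The steps were tested on simulated data with 200 changed probes.

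The genes and lists were chosen with earlier results of these data known. Values on every array were to be given for genes at limma P under 0.05, with genotypes that did not overlap, or with the 2 largest changes of a role. Gpnmb, Timd4, Mpeg1, Laptm5, Lyz1, Lyz2, Cr2 and, from the other lists, Irf8, Lyve1, Clec12a, Zbtb46, S100a8 and S100a9 were added after their values were seen, as was the comparison without WT 1 and PRA 4 together. Alternatives were normexp (offset 50) with loess, the series table, no or a stricter filter, Cy5 alone (less each array's 75th percentile), quantile normalization, the methods' t-test, the replicate number as a block, the median over probes and each array left out. The slide could not be fitted as a block, since there was 1 slide.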

Additional observations from a re-analysis of the deposited data

Results flagged for a closer look

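Among the PRA transgenic glands, 1 array lay far from the rest for each of these genes or lists, judged by its gap to the nearest array divided by the range of the 4. Of 54 groups examined 7 were past the critical value, where chance gives 2.7 at 1 in 20 groups. The ratio was 0.860 for Fcgr1, 0.943 for Siglec1 and 0.845 for Gpnmb, in all 3 of which PRA 4 was the high array. For Timd4 it was 0.891, with PRA 2 high at 4.68 against 4.10 to 4.16. The Timd4 reference was well above background on 0 of 7 arrays. In log2 Cy5 signal PRA 4 was the high array of the 4 at 7.87, with PRA 2 at 6.97. Among the marker lists the ratio was 0.959 for the fibroblast mean and 0.970 for the skeletal muscle mean, both with PRA 4 high. It was 0.913 for the endothelium mean, with PRA 2 low at 4.95 against 5.36 to 5.40.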

How the results depend on the processing

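No macrophage gene passed an adjusted p of 0.05 under any setting tried with limma or the methods' t-test, with lowest adjusted p-values from 0.288 to 0.747. The median log2 fold change stayed below 0, from -0.44 to -0.02, and the median over all gene names lay between -0.01 and 0.01 under every scaling. The count at P under 0.05, 3 with all arrays, was 0 of 23 genes with both channels well above background (7.61% of all gene names), 1 by the methods' t-test (8.52%), and 1 to 8 with each array left out in turn, the 1 without PRA 2 (6.64%) and the 8 without PRA 4 (11.3%). Without WT 1 and PRA 4 together it was 8, against 9.98% of all gene names. The count of genes with no overlap, 2 with all arrays, was 0 with both channels well above background (8.89%), 0 in Cy5 alone (8.61%), 1 for the median over probes (9.34%) and 2 to 11 with an array left out (4 without WT 1 or without PRA 2, against 17.1% and 12.6%, 5 without WT 3, against 16.1%, and 11 without PRA 4, against 18.9%), and 13 without WT 1 and PRA 4 together, against 28.5%. PRA 4 was the highest array for 15 to 19 genes under the alternatives run. The 7 genes lower without PRA 4 (background 5.41%) became 11 after normexp and loess (5.52%), 4 by the methods' t-test (4.81%) and 4 for the median over probes (5.33%), and lay between 5 and 8 otherwise (5.26% to 5.74%). Of the 32 log2 fold changes 5 changed sign after normexp and loess, Cd163 (0.47 to -0.11), Mrc1 (0.47 to -0.11), Siglec1 (0.49 to -0.19), Clec10a (0.15 to -0.65) and Aif1 (0.01 to -0.02), and 6 in Cy5 alone, Spi1, Mrc1, Siglec1, Folr2, Clec10a and Aif1. With the replicate block or the median over probes 4 changed sign, and with an array left out 1 to 4. The cause was not tested. At the methods' own threshold, P under 0.01 and 2-fold, the t-test called 0 of 32, and after Benjamini-Hochberg none. Marco lost P under 0.05 without any 1 PRA transgenic array (log2 fold changes of -2.99 to -2.55), Cybb without WT 1, WT 2, PRA 1 or PRA 2 (-0.88 to -0.72), and Cd163 without any 1 wild-type array or PRA 2 (0.46 to 0.49).

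Same-numbered arrays did not deviate together (correlations of 0.0997, -0.297 and 0.0362), and the main fit did not pair them. These few values cannot show whether the animals were paired, for instance by litter. With the replicate number as a block, which leaves PRA 4 alone in its block, 9 genes reached P under 0.05 (28.1%, against 9.13% of all gene names), 8 of them lower (against 4.71%) and none past the adjusted threshold, and the median was -0.44.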
